A study of Mus musculus with 46 samples.

Results

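Dynap (ENSMUSG00000024512.4), the gene for dynactin-associated protein, was followed through every library of a study of Ctu1 loss and mTOR inhibition in murine EPP2 pancreatic cancer cells. It is 1 gene of the 9857 symbols that both the DMSO and the torin 1 count tables list, and it was chosen by its measured change: earlier results of these data placed its footprint and RNA levels among the most raised with Ctu1 loss and with torin 1. Its rise in these comparisons is therefore given as a description, with standard errors and without a test.

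Dynap is a small membrane-spanning protein of the Golgi apparatus and the plasma membrane. It binds dynactin, the cofactor that couples the motor dynein to its cargo on microtubules, and it is known to promote activation of the kinase Akt. Akt is switched on by mTORC2, one of the complexes built around the kinase mTOR, and active Akt keeps the FoxO transcription factors out of the nucleus. Torin 1 blocks the kinase mTOR in both mTORC1 and mTORC2. Ctu1 is a subunit of the cytosolic thiouridylase, which adds sulfur to the wobble uridine of certain tRNAs, among them those that read AAA, CAA and GAA codons.

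Ribosome footprints (RiboSeq) and poly(A) RNA were sequenced from the same 23 labelled cultures, which gave 46 libraries. The cells came from a clone grown from 1 cell that carries Cas9 under a doxycycline-inducible promoter, and Ctu1KO cultures carry guide RNAs against Ctu1. The labels of every library, controls included, give the same 300 ng/ml of doxycycline for 4 days, while the methods, which cover all experiments of the study, describe controls with guide RNAs against non-coding regions or without doxycycline. There were 6 control cultures with DMSO, 6 control cultures with 300 nM torin 1 for 2 h, 5 Ctu1KO cultures with DMSO and 6 Ctu1KO cultures with torin 1. The sources differ on how independent these cultures are, since the methods name 2 biologically independent replicates for ribosome profiling, the legends give 5 or 6 independent experiments for footprints and 2 for RNA sequencing, and the labels number up to 6, so the p-values given for other genes measure the spread between these cultures.

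Footprint libraries held between 4602092 and 52907878 counts and RNA libraries between 129881946 and 325494304. EPP2 cells listed 5 of 7 epithelial and duct markers, among them the keratins Krt8, Krt18 and Krt19 in every culture, and all 4 fibroblast markers, while 0 of 4 acinar and 0 of 2 endothelial markers were listed. Of 3 immune markers 1 was listed, the macrophage gene Cd68, at 1.27 to 6.11 counts per 1000000 in the footprints of the 11 DMSO cultures. The tables list a gene only if it reached 100 footprints in at least 1 library of its treatment, so a marker that is missing from them may still have been expressed at a low level. A score over the 300 genes that responded most strongly to each perturbation in replicates 1 and 2, from which Dynap was left out, was used to check each library against its label. Since replicates 1 and 2 chose these genes, only the 15 libraries per assay of replicates 3 to 6 are checked by it. Of these, 15 of 15 footprint libraries scored as their treatment label says, and 14 of 15 as their genotype label says. The exception was the footprint library labelled Ctu1KO with DMSO, replicate 4, whose Ctu1 score was -0.03. In contrast, 6 of 15 RNA libraries went against a label. These were the libraries labelled control with torin 1, replicates 5 and 6, Ctu1KO with DMSO, replicates 4 and 5, and Ctu1KO with torin 1, replicates 5 and 6. RNA values are therefore given for replicates 1 to 3 first and for all libraries after that.

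The guide RNAs that the study lists against mouse Ctu1 are shown here because they define the perturbation, in lower case and with the adjacent bases of the genome (the NGG motif that Cas9 needs) in capitals. They were designed as 2 pairs, and the sources used here do not say which pair these cultures carried. Each matched chromosome 7 of GRCm38 at 1 place, within an exon of Ctu1 (ENSMUSG00000038888.8, plus strand).
Ctu1_dsgRNA1 guide 1, chr7:43675332-43675349, minus strand: gcacgtgtgccagcactgTGG
Ctu1_dsgRNA1 guide 2, chr7:43675475-43675492, minus strand: gtaggccacgatggtgagCGG
Ctu1_dsgRNA2 guide 1, chr7:43675314-43675332, minus strand: gtggagtccttgccaccagAGG
Ctu1_dsgRNA2 guide 2, chr7:43675484-43675503, plus strand: gtggcctacgaagatctcttCGG
Within 10000 bases of Dynap on either side, the closest site followed by NGG differed from these guides at 7 or more positions. The Dynap locus therefore held no close match to any of the 4 guides.

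Ctu1 itself was listed only in the DMSO tables. Its footprints ran from 1.58 to 3.43 counts per 1000000 counts of these tables (CPM) in the 6 control cultures, with a median of 2.52, and were 1.48, 1.30, 2.28, 1.74 and 2.13 CPM in the 5 Ctu1KO cultures. In RNA, Ctu1 was at 4.76, 4.54 and 4.57 CPM in control replicates 1 to 3 and at 4.57, 4.37 and 4.96 CPM in Ctu1KO replicates 1 to 3. The RNA libraries labelled Ctu1KO with DMSO, replicates 4 and 5, which went against their treatment label, were at 3.28 and 3.10 CPM, below all 6 control libraries (4.23 to 5.26). In footprints and in RNA replicates 1 to 3 the ranges of the genotypes overlapped, so the counts of the targeted gene do not by themselves separate the genotypes.

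Dynap lies on the minus strand of chromosome 18 (chr18:70240429-70244582, GRCm38) and overlaps no other annotated gene. Its transcript has 3 exons of 257, 81 and 887 bases, a 5′ untranslated region of 200 bases without an upstream ATG, a coding sequence of 161 codons and a 3′ untranslated region of 539 bases. With 161 codons it is shorter than most listed genes, whose median is 467 codons, and 8.53% of the 9634 genes with a gene model are shorter. Only 1 of its codons is AAA (0.621%, against a median of 2.19% over all genes), and 3 of its codons encode lysine. AAA, CAA and GAA codons together make up 6.21% of its codons, which is close to the median of 6.13%. AGA, an arginine codon, makes up 1.86% of its codons, above the median of 1.08% and higher than in 78.6% of genes. The annotated 5′ end does not begin with a C and 4 pyrimidines, the start that marks the terminal oligopyrimidine mRNAs controlled by mTORC1, which 2.30% of all genes carry.

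In the footprints, Dynap was lowest in control cells with DMSO, rose with either perturbation and was highest where both were combined. All CPM of Dynap are counts per 1000000 over the 9857 shared symbols of a library. Control cultures with DMSO ran from 1.61 to 2.68 CPM with a median of 1.99 CPM (mean 2.04 ± 0.40, SD, n = 6). Control cultures with torin 1 ran from 3.13 to 7.14 CPM with a median of 5.01 (mean 5.09 ± 1.34, SD, n = 6). The 5 Ctu1KO cultures with DMSO stood at 4.73, 7.59, 11.6, 7.50 and 8.94 CPM (mean 8.08 ± 2.5, SD, n = 5). No culture of either single perturbation reached down to the control range. The 6 Ctu1KO cultures with torin 1 ran from 20.8 to 33.4 CPM with a median of 23.3 (mean 24.5 ± 4.57, SD, n = 6), and the lowest of them was 1.79 times as high as the highest culture of any other group. Only the neighbours in the middle of this order, control with torin 1 and Ctu1KO with DMSO, overlapped. In bulk libraries such as these, a larger share of cells with Dynap and more Dynap per cell cannot be told apart.

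These levels rest on few footprints. Dynap had between 29 and 406 footprints in a library, and the lowest count, 29 in control with DMSO, replicate 2, has an exact 95% Poisson interval of 19.4 to 41.6. The highest level, 33.4 CPM in Ctu1KO with torin 1, replicate 1, rests on 153 footprints (129.7 to 179.3) in the library with the lowest total. Without that library the mean of the group was 22.7 ± 1.60 CPM (SD, n = 5), 11.2 times the mean of control with DMSO, against 12 times with it. These intervals cover counting error only. In RNA, Dynap had between 296 and 7022 counts in a library, and counting error was at most 5.81% of the value. Every RNA count is even, and if both reads of a fragment were counted, that limit is 8.22%.

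**Figure D1:**
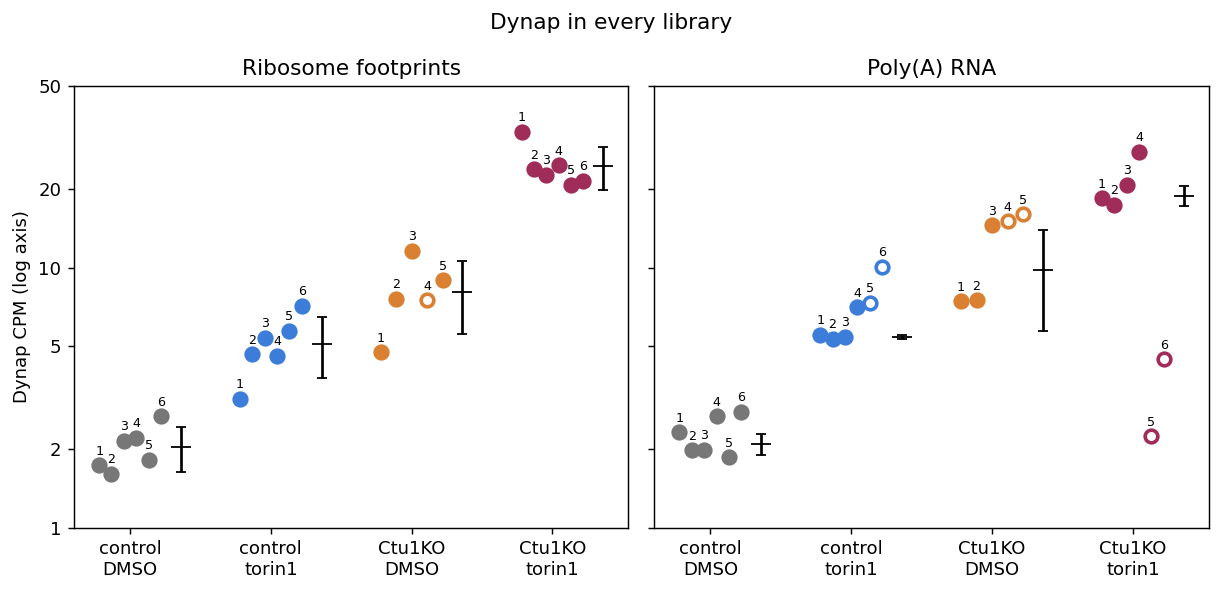
Dynap CPM on a log axis in each footprint library (left) and each poly(A) RNA library (right), by group, with the replicate number above each point. Open circles are libraries that went against a label. Bars give the mean ± SD of all footprint libraries and of RNA replicates 1 to 3. Footprints rise from a mean of 2.04 CPM in control with DMSO to 24.5 CPM in Ctu1KO with torin 1, and the RNA libraries labelled Ctu1KO with torin 1, replicates 5 and 6, lie far below replicates 1 to 4.

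Loss of Ctu1 raised the footprints of Dynap in cells with DMSO. The question of this comparison is what a cell without the tRNA thiolase translates and transcribes differently. The fitted change was 1.95 ± 0.24 (log2, SE from edgeR, 6 against 5 cultures), a fold of 3.86, and Dynap ranked 11 from the top of 10397 genes. The groups did not overlap. The share of all genes whose groups do not overlap is not given here, for this or the other comparisons. By a different measure, 2.66% of all genes tested were called in this comparison (edgeR quasi-likelihood test, Benjamini-Hochberg adjusted p under 0.05). The lowest Ctu1KO culture was 1.76 times as high as the highest control culture. Leaving out any 1 library kept the change between 1.78 and 2.09, which covers the Ctu1KO library whose genotype score was weak.

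The RNA of Dynap rose with loss of Ctu1 as well. In replicates 1 to 3 it stood at 2.33, 1.98 and 1.99 CPM in control with DMSO and at 7.42, 7.49 and 14.5 CPM in Ctu1KO with DMSO. The third Ctu1KO library lay well above the other two, and all 3 lay above every control library. The fitted RNA change was 2.25 ± 0.28 (log2, SE, 3 against 3), and 1.84 ± 0.13 without Ctu1KO replicate 3. Dynap ranked 2 of 10119 genes, behind Anxa8, an annexin, at 2.33, in a comparison in which 5.12% of genes were called (28.0% with the replicate number as a block). The remaining RNA libraries labelled Ctu1KO with DMSO, replicates 4 and 5, were at 15.1 and 16.0 CPM, and their torin 1 scores were those of torin 1-treated libraries.

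Torin 1 raised Dynap in control cells within the 2 h of treatment. In footprints the fitted change was 1.24 ± 0.23 (log2, SE, 6 against 6), a fold of 2.36, and rank 51 of 9856 genes, with 7.24% of all genes called in this comparison (20.5% with the replicate number as a block). The lowest culture with torin 1, replicate 1 at 3.13 CPM, stood 1.17 times above the highest with DMSO, replicate 6 at 2.68 CPM, which is the narrowest gap among the 4 comparisons in footprints.

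In RNA, control replicates 1 to 3 stood at 5.51, 5.32 and 5.43 CPM with torin 1, against 2.33, 1.98 and 1.99 CPM with DMSO. The torin 1 libraries lay close together and well above the DMSO libraries. The fitted RNA change was 1.40 ± 0.11 (log2, SE, 3 against 3), rank 16 of 9617 genes, with 13.1% of all genes called (43.7% with the replicate number as a block). The most strongly raised gene was Ccng2, the cyclin G2 gene and a known FoxO target, at 3.07. RNA libraries labelled control with torin 1, replicates 4 to 6, stood higher, at 7.03, 7.31 and 10.1 CPM, of which replicates 5 and 6 went against their labels.

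When both perturbations were combined, Dynap rose further from either single state. Torin 1 changed its footprints by 1.50 ± 0.21 in Ctu1KO cells (log2, SE, 6 against 5), and loss of Ctu1 changed them by 2.20 ± 0.20 in cells with torin 1 (log2, SE, 6 against 6), where Dynap ranked 3 of 9913 genes. Without Ctu1KO replicate 1 with torin 1, which held the highest level, the torin 1 change was 1.38 ± 0.20. In RNA replicates 1 to 3, Ctu1KO cultures with torin 1 stood at 18.5, 17.5 and 20.9 CPM. All 3 were above every RNA library labelled DMSO, and replicate 4, which followed its labels, was higher still at 27.9 CPM. Replicates 5 and 6, which went against their labels, were far lower, at 2.25 and 4.44 CPM. The RNA change with torin 1 in Ctu1KO was 1.0 ± 0.27 (log2, SE, 3 against 3), and 1.42 ± 0.13 without Ctu1KO replicate 3 with DMSO, while loss of Ctu1 in cells with torin 1 changed RNA by 1.85 ± 0.10. Over all RNA replicates, including those that went against their labels, the change was 0.36 ± 0.53 for torin 1 in Ctu1KO and 1.23 ± 0.47 for loss of Ctu1 with torin 1.

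The combined level in footprints was close to the product of the single changes. Multiplying the mean folds of 3.96 for loss of Ctu1 and 2.5 for torin 1 gives 20.2 CPM, and the measured mean of 24.5 CPM was 1.21 times that value, whereas adding the single differences gives 11.1 CPM, which the measured mean exceeded 2.20 times. On the log2 scale the torin 1 effect in Ctu1KO minus that in control was 0.26 ± 0.30 (SE, all 23 footprint libraries, 95% normal interval from -0.32 to 0.84). This interval holds 0 and runs from -0.32 to 0.84, so a level below, equal to or above the product of the single folds cannot be told apart here. The value moved with the cultures used, from 1.0 ± 0.56 in replicates 1 and 2 to -0.12 ± 0.26 in replicates 3 to 6. In RNA replicates 1 to 3 the product is 25.3 CPM and the measured mean was 18.9 CPM, with a difference of the torin 1 effects of -0.39 ± 0.31 (SE, 12 libraries) that turned to 0.02 ± 0.14 without Ctu1KO replicate 3 with DMSO.

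Footprints and RNA of Dynap both rose with each single perturbation, and the number of footprints per RNA then lay within or below its control range. In control with DMSO the ratio of footprint CPM to RNA CPM of the same labelled culture ran from 0.74 to 1.08 (mean 0.90 ± 0.13, SD, n = 6). In control with torin 1 it was 0.57, 0.87 and 0.99 in replicates 1 to 3 (mean 0.81 ± 0.22, SD, n = 3), and in Ctu1KO with DMSO it was 0.64, 1.01 and 0.80 (mean 0.82 ± 0.19, SD, n = 3). The lowest value of each group, 0.57 and 0.64, lay below the lowest control, and so did control with torin 1, replicate 4, at 0.65, whose libraries followed their labels. Ctu1KO with DMSO, replicates 4 and 5, whose RNA libraries went against a label, were lower still, at 0.50 and 0.56. Control with torin 1, replicates 5 and 6, whose RNA libraries also went against their labels, were at 0.78 and 0.71, of which 0.71 lay below the lowest control. In Ctu1KO with torin 1 the ratio was 1.81, 1.37 and 1.09 (mean 1.42 ± 0.36, SD, n = 3), and all 3 values were above every culture of the other groups. The lowest, 1.089 in replicate 3, was barely above control with DMSO, replicate 3, at 1.085. Counting error of the footprints of these 2 cultures was 6.61% and 13.4%. Replicate 4 of the same group, whose libraries followed their labels, was at 0.89, within the range of the controls.

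The fitted change in translational efficiency, which is the footprint change beyond that of RNA in replicates 1 to 3, gave the same order. It was -0.16 ± 0.49 for loss of Ctu1 with DMSO and -0.25 ± 0.36 for torin 1 in control (log2, SE). Both intervals held 0 and were wide, from -1.11 to 0.79 and from -0.95 to 0.46. For Ctu1KO cells with torin 1 it was 0.62 ± 0.47 against Ctu1KO with DMSO (interval -0.30 to 1.54) and 0.71 ± 0.31 against control with torin 1 (interval 0.10 to 1.31). Without replicate 1 of Ctu1KO or of control, both with torin 1, the last value was 0.51 ± 0.32 or 0.51 ± 0.31, with intervals that hold 0 (-0.12 to 1.13 and -0.10 to 1.12), as does that without Ctu1KO replicate 2 with torin 1 (0.72 ± 0.37). Over all replicates the last value was 0.97 ± 0.54, but this includes the RNA libraries labelled Ctu1KO with torin 1, replicates 5 and 6, at 2.25 and 4.44 CPM. Paired by label, these libraries gave ratios of 9.26 and 4.87, with footprints at 20.8 and 21.6 CPM. Both scores of these 2 RNA libraries were below 0 (torin 1 scores of -0.09 and -0.07, Ctu1 scores of -0.24 and -0.28), and whether they come from the cultures they are labelled with was not tested.

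**Figure D2:**
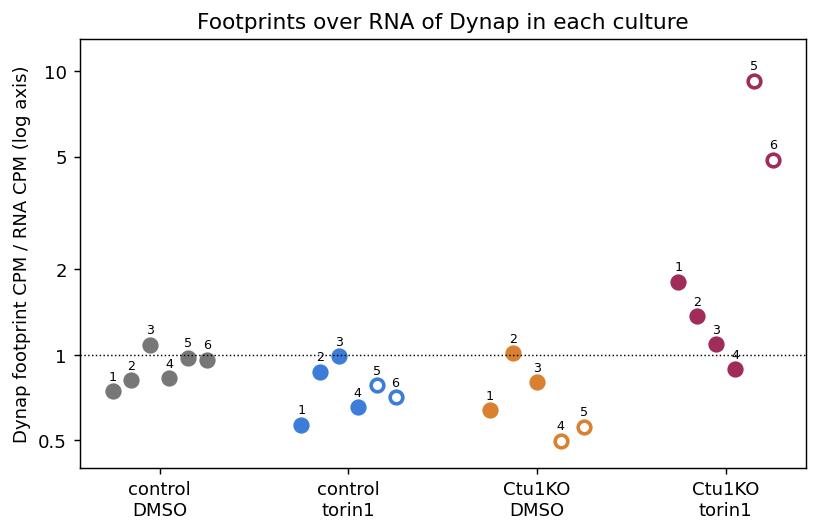
Ratio of Dynap footprint CPM to RNA CPM of libraries labelled as the same culture, on a log axis, by group, with the replicate number above each point. Open circles mark cultures whose RNA library went against a label, and the dotted line marks a ratio of 1. Ctu1KO cultures with torin 1, replicates 1 to 3, lie between 1.09 and 1.81, and replicates 5 and 6 of that group at 9.26 and 4.87.

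Relative to other genes, Dynap moved from the low end of expression to the upper part. Per kilobase of exon, its RNA level was 1.71 CPM per kb in control with DMSO, above 14.6% of 9683 genes, and 4.43 CPM per kb with torin 1, above 35.8%. In Ctu1KO it was 8.02 CPM per kb with DMSO, above 52.0% of genes, and 15.5 CPM per kb with torin 1, above 71.7% (RNA replicates 1 to 3). Footprints per kilobase of coding sequence gave a like order, above 16.6%, 35.8%, 48.4% and 72.5% of 9634 genes in the same 4 groups. Dynap was thus below most listed genes in control cells with DMSO, and above the median gene in both assays where the perturbations were combined.

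None of the genes around Dynap changed by as much as Dynap itself. Dynap was chosen for its large change, so this contrast follows from the choice. The nearest protein-coding genes on either side are Rab27b, a small GTPase of secretory vesicles, 98.8 kb away, and 4930503L19Rik, 207.6 kb away. With loss of Ctu1 in DMSO, Rab27b changed by 0.36 ± 0.21 in footprints and 0.37 ± 0.16 in RNA, and 4930503L19Rik by 0.07 ± 0.15 and -0.03 ± 0.08 (log2, SE), none of which passed the test. Of the 10 listed genes nearest to Dynap, 5 on each side, 1 was called with loss of Ctu1 in each assay, beside 2.66% of all genes in footprints and 5.12% in RNA. It was Rnmt, the mRNA cap methyltransferase, which fell by 0.65 in footprints (edgeR adjusted p = 0.0011) and by 0.49 in RNA (edgeR adjusted p = 0.018). With torin 1 in control, Rab27b rose by 0.41 (edgeR adjusted p = 0.038) and Poli, a DNA polymerase, by 0.38 (edgeR adjusted p = 0.015) in RNA, 2 of 10 beside 13.1% of all genes. In footprints with torin 1, with 7.24% of all genes called, the largest change among the neighbours was that of Rab27b, 0.73 ± 0.22, which did not pass (edgeR adjusted p = 0.057). The remaining neighbours were Tcf4, Fam210a and Cep192 on the lower side and Mbd2, Mex3c and Smad4 on the higher side, whose changes lay between -0.29 and 0.30 in both assays and comparisons.

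The partners of Dynap in the dynactin complex moved far less than Dynap, which also follows from the choice of Dynap by its change. Of all genes, 2.66% were called in footprints and 5.12% in RNA with loss of Ctu1, and 7.24% and 13.1% with torin 1, by the edgeR test. DESeq2 called 700 of all genes in footprints and 1530 in RNA with loss of Ctu1, and 1963 in RNA with torin 1. The share of all genes at an unadjusted p under 0.05 is not given for these fits. List counts at that limit, here and below, therefore have no background beside them. Of the 12 dynactin members, all tested, 0 passed the edgeR test in footprints with loss of Ctu1 (4 at an unadjusted p under 0.05, and 2 by DESeq2), and 1 rose in RNA, Capzb, which caps the actin-like filament of dynactin (0.31 ± 0.07, edgeR adjusted p = 0.044). The median member changed by 0.16 in footprints and 0.06 in RNA, beside close to 0 for all genes in both. Dctn1, the large subunit p150Glued that Dynap binds, was at 150.5 ± 24.4 CPM in footprints of Ctu1KO and 106.7 ± 16.6 in control with DMSO (SD, n = 5 and 6), a change of 0.45 ± 0.14 that did not pass (edgeR adjusted p = 0.092). With torin 1, Dctn4 rose in footprints (0.31 ± 0.08, edgeR adjusted p = 0.029) and in RNA (0.27 ± 0.07, edgeR adjusted p = 0.037), 1 of 12 in each. The RNA call of Dctn4 was lost in 8 of 15 alternative fits, including those without any 1 library, and the footprint call in 3 of 9, each on fewer replicates, while the RNA call of Capzb was lost in 6 of 15. With the replicate number as a block, 2 of 12 passed in each assay with torin 1, beside 20.5% and 43.7% of all genes, and 3 of 12 in RNA with loss of Ctu1, beside 28.0%.

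Of the dynein subunits and cargo adaptors, 23 of 26 were tested. With torin 1, Dync1h1, the motor heavy chain, rose by 1.03 ± 0.13 in footprints and 0.97 ± 0.16 in RNA (edgeR adjusted p = 0.00010 and 0.0095), while Dynll1, a light chain, fell by 0.38 and 0.34 (edgeR adjusted p = 0.0028 and 0.019). Dync1h1 footprints went from 32.0 ± 6.37 to 69.8 ± 9.82 CPM (SD, n = 6 each). In RNA, Bicd2 and Trak2, adaptors that link dynein to vesicles and mitochondria, fell too, which made 1 rise and 3 falls of 23, and in footprints 1 rise and 1 fall of 23 (with the replicate block 4 rises and 5 falls in RNA, and 2 and 2 in footprints). These calls stand beside 7.24% of all genes in footprints and 13.1% in RNA, or 20.5% and 43.7% with the block, and all genes were called in both directions too (287 rises and 427 falls in footprints, 547 and 712 in RNA). Of these RNA calls, that of Trak2 was lost in 7 of 15 alternative fits, that of Dynll1 in 5 and that of Bicd2 in 3, most of them fits without 1 library. With loss of Ctu1, Dynlrb1, another light chain, rose in RNA (0.36 ± 0.06, edgeR adjusted p = 0.025; lost in 5 of 15 alternative fits), 1 of 23 beside 5.12% of all genes (5 of 23 beside 28.0% with the replicate block), while in footprints 0 of 23 passed the edgeR test (5 at an unadjusted p under 0.05, and 0 by DESeq2), beside 2.66% of all genes.

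Of the mTORC2 and Akt list, 17 of 19 genes were tested. With torin 1, Sgk1, a kinase activated by mTORC2, rose from 328.2 ± 67.1 to 909.0 ± 133.3 CPM in footprints (1.38 ± 0.14, edgeR adjusted p = 7.2e-06) and by 1.40 ± 0.06 in RNA (edgeR adjusted p = 0.00018). In RNA, Rictor, the defining subunit of mTORC2, also rose (0.71 ± 0.06, edgeR adjusted p = 0.0012), and Mlst8, an mTOR partner, and Phlpp2, a phosphatase that acts on Akt, fell by 0.44 and 0.52 (edgeR adjusted p = 0.024 and 0.021), calls lost in 6 and 3 of 15 alternative fits. That makes 1 of 17 in footprints and 4 of 17 in RNA, beside 7.24% and 13.1% of all genes, and 7 and 11 of 17 with the replicate block, beside 20.5% and 43.7%. With loss of Ctu1, 0 of 17 passed the edgeR test in footprints (4 at an unadjusted p under 0.05, 1 by DESeq2 and 1 with the replicate block) and 0 of 17 in RNA (3 at an unadjusted p under 0.05, 2 by DESeq2 and 3 with the replicate block), beside 2.66% and 5.12% of all genes, or 3.5% and 28.0% with the block. The largest of these changes were those of Pik3r1, a regulatory subunit of PI3 kinase, in footprints (0.53 ± 0.18) and of Deptor, an mTOR inhibitor, in RNA (-0.40 ± 0.12).

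The FoxO factors and their known targets are the list in which most members rose with torin 1, 9 of 16 tested in each assay and the same 9 genes in both (with the replicate block, 9 rose and 1 fell in footprints and 10 rose and 1 fell in RNA). Of all genes, 7.24% and 13.1% were called in these comparisons, or 20.5% and 43.7% with the block. The list was drawn up with earlier results of these data known, so its share beside that of all genes is a description and no test of the list. The 9 genes were Foxo3, Ccng2, Irs2, Txnip, Bcl6, Cited2, Cdkn1b, Klf6 and Trib1. In footprints of replicates 1 to 3 alone, only Foxo3, Ccng2 and Cited2 of these passed, and Bcl6 did not pass in replicates 3 to 6 alone either. In RNA, the call of Txnip was lost in 5 of 15 alternative fits, 4 of them without 1 library, that of Trib1 in 3, and those of Cited2 and Irs2 with all replicates. The median member changed by 0.61 in footprints and 0.65 in RNA, beside 0.01 and 0.00 for all genes. Ccng2 went from 2.57 ± 0.53 to 18.6 ± 4.41 CPM in footprints (2.76 ± 0.18, edgeR adjusted p = 1.2e-07), and Irs2, an adaptor of the insulin receptor, rose by 1.34 ± 0.17 (edgeR adjusted p = 9.9e-05). With loss of Ctu1, 2 of 16 rose in each assay, Txnip and Gadd45a, and the medians were 0.14 in footprints and -0.02 in RNA (with the replicate block, 4 rose and 1 fell in RNA), with 2.66% and 5.12% of all genes called (28.0% in RNA with the block). Without control replicate 2 with DMSO, neither passed in RNA, and Txnip did not pass without Ctu1KO replicate 1 with DMSO. Gadd45a, a stress-induced gene, went from 2.86 ± 0.68 to 9.62 ± 0.96 CPM in footprints (1.71 ± 0.19, edgeR adjusted p = 0.00058). Txnip, an inhibitor of thioredoxin, went from 4.03 ± 1.1 to 14.3 ± 5.01 CPM (1.80 ± 0.27, edgeR adjusted p = 0.0039), and rose with torin 1 by 0.95 ± 0.23 (edgeR adjusted p = 0.019).

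Among the 13 genes of the Golgi matrix list, the compartment in which Dynap resides, Golga5 rose with torin 1 in footprints (0.39 ± 0.11, edgeR adjusted p = 0.035) and Gorasp2 with loss of Ctu1 in RNA (0.27 ± 0.06, edgeR adjusted p = 0.0497), each as 1 of 13, beside 7.24% and 5.12% of all genes. The call of Gorasp2 was lost in 9 of 15 alternative fits, including those without any 1 library, and that of Golga5 in 3 of 9, each on fewer replicates. In footprints with loss of Ctu1, 0 of 13 passed the edgeR test, beside 2.66% of all genes (2 at an unadjusted p under 0.05 and 0 by DESeq2). In RNA with torin 1, 0 of 13 passed, beside 13.1% of all genes (5 at an unadjusted p under 0.05 and 1 by DESeq2). With the replicate block 8 of 13 passed in RNA with torin 1, beside 43.7% of all genes.

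Over the 5 lists together, 2 of 81 genes tested were called in footprints and 5 of 81 in RNA with loss of Ctu1, and 14 and 18 of 81 with torin 1, or 2.47%, 6.17%, 17.3% and 22.2%, beside 2.66%, 5.12%, 7.24% and 13.1% of all genes. Of the calls with torin 1, 9 of the 14 in footprints and 9 of the 18 in RNA were those of the FoxO list, so the pooled shares do not describe each list. With the replicate number as a block, the counts with torin 1 were 25 and 41 of 81 (30.9% and 50.6%, beside 20.5% and 43.7% of all genes), and that in RNA with loss of Ctu1 was 18 of 81 (22.2%, beside 28.0%). Leaving out control replicate 2 with DMSO, the RNA count with loss of Ctu1 fell to 0 (10 at an unadjusted p under 0.05). Of all genes 0 were called in that fit too (1703 at an unadjusted p under 0.05). The list count fell to 2 or 1 without control replicate 1 or 3 or Ctu1KO replicate 1 or 2, all with DMSO. In these fits 79, 131, 34 and 51 of all genes were called, against 518 in the main fit. The RNA count with torin 1 fell to 11 without control replicate 1 or 2 with DMSO, while that of all genes fell from 1259 to 575 and 412.

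**Figure D3:**
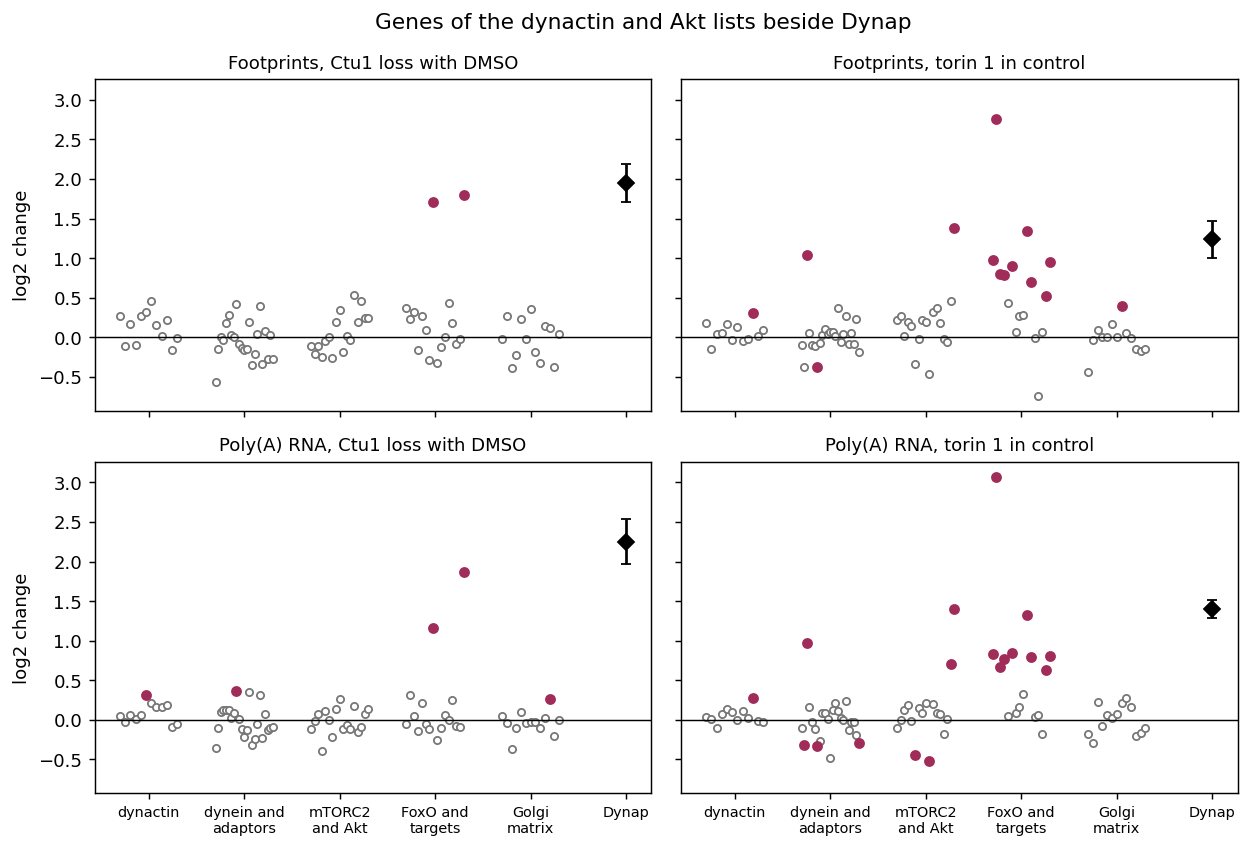
Log2 change of each gene of 5 lists (circles) and of Dynap (diamond, with SE) in footprints (top) and poly(A) RNA (bottom) with loss of Ctu1 (left) and with torin 1 in control (right). Filled circles passed the edgeR test at an adjusted p under 0.05. Most members lie near 0, 9 of 16 FoxO genes rose with torin 1 in both assays, and Dynap lies at 1.95 and 2.25 with loss of Ctu1.

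The genes whose footprint levels followed those of Dynap most closely over the 23 libraries were Sema3c, a secreted guidance protein (Pearson r = 0.96 on log2 CPM), Mical2, an actin oxidoreductase (0.94), and Anxa5, annexin A5 (0.94), followed by Fam110c, Thbs2, Baiap2l1, Plscr1 and Grem1 (0.91 to 0.92), out of 8855 genes compared. The libraries share their groups and depth, so these are descriptions of like patterns. Fam110c came closest to Dynap in the size of its change, from 2.87 CPM in control with DMSO through 8.56 with torin 1 and 6.88 with loss of Ctu1 to 26.6 with both. Grem1, a BMP antagonist, went from 4.88 through 8.29 and 11.1 to 24.3 CPM. Anxa5 changed much less, from 612.3 to 1099 CPM, although its r was among the highest. In RNA replicates 1 to 3 (12 libraries, 9491 genes), the closest were Mecom, a transcription factor (0.99), Gnb4, a G protein subunit (0.98), and Il18rap, an interleukin receptor subunit (0.98), followed by Serpinb6a, Lgals3, Gabarap, Ifi204 and Plac8 (0.97). Of the 8 genes named in each assay, 0 were in both.

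**Figure D4:**
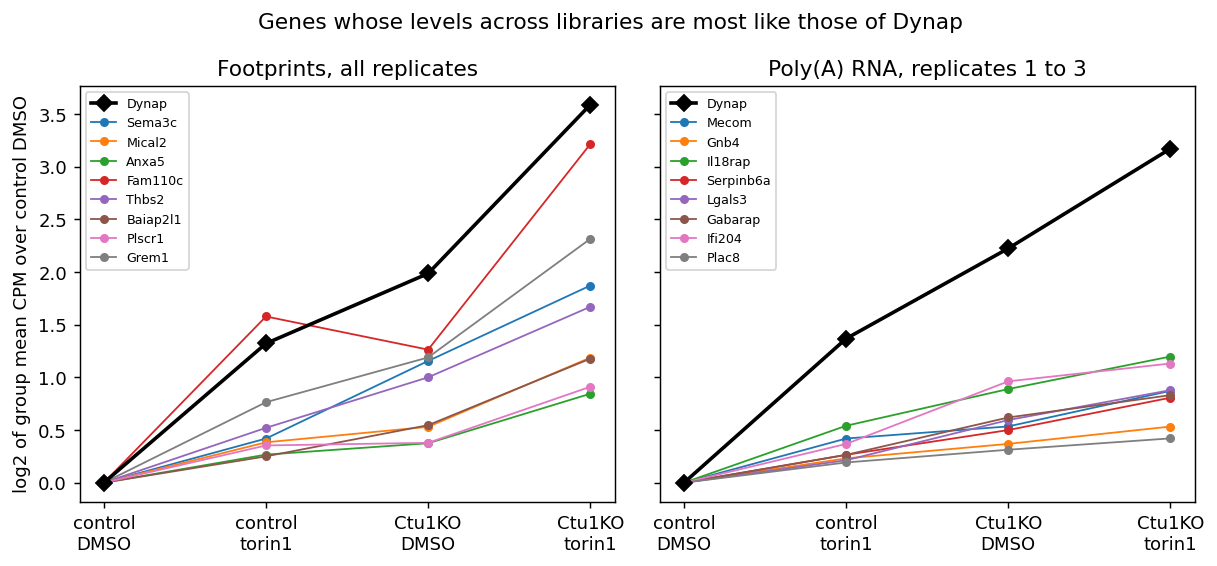
Log2 of the mean CPM of each group over that of control with DMSO for Dynap (black diamonds) and the 8 genes with the highest Pearson correlation with it (coloured circles), in footprints of all 23 libraries (left) and RNA of 12 libraries (right). Lines join the groups of 1 gene and mark no order in time. All 16 genes are lowest in control with DMSO and highest in Ctu1KO with torin 1, an order that their choice by correlation with Dynap favours. In RNA none changes by as much as Dynap, which was itself chosen for its change.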

How the data were processed

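Ribosome footprints and poly(A) RNA of 23 EPP2 cultures were analysed from raw counts per gene as the authors deposited them, without normalization. For footprints, the authors trimmed reads with cutadapt 3.4, handled molecular identifiers with UMI-tools 1.1.1, removed rRNA reads and aligned and counted with STAR 2.5.3a. The submitters' processing notes name mm10 (GRCm38), while the methods text names a human build. RNA libraries were paired-end and stranded, and every RNA count is even. Groups came from the sample labels. Dynap, the gene lists and the alternatives were chosen with earlier results of these data known.

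Fits used genes averaging 10 or more counts in the compared libraries, with edgeR 4.0.16 in R 4.3.3 (TMM, quasi-likelihood), on all footprint replicates and on RNA replicates 1 to 3. Standard errors are the log2 change divided by the square root of F, and p-values were adjusted by Benjamini-Hochberg over all genes tested. Translational efficiency is the interaction of assay and group over replicates 1 to 3. The models were tested on simulated data. Named list genes are those that passed, with values for at most 4 per list by size of change (Dctn1, Pik3r1 and Deptor were named for role or size without passing). Likeness used a pseudocount of 1 and genes averaging 100 counts or more. Cultures with the same replicate number in the labels deviated together from their group means (lowest r per comparison 0.49 or more in RNA, 0.44 in footprints for torin 1 in control), but not in footprints for loss of Ctu1 with DMSO (-0.10). Gene models are from GENCODE M21. Alternatives were DESeq2 1.42.0, library totals, DESeq2 size factors, other count filters, the replicate block, RNA counts divided by 2, other replicate sets and leaving out libraries. Python 3.11.15, pandas 2.3.3, numpy 2.4.6, scipy 1.17.1 and matplotlib 3.10.9 were used.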

Additional observations from a re-analysis of the deposited data

Results flagged for a closer look

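In footprints of Ctu1KO with torin 1, replicate 1 stood at 33.4 CPM of Dynap, and its gap to the next library took up 0.69 of the range of the 6 libraries, above Dixon's 95% limit for 6 samples. It was 1 of 16 groups examined, of which chance marks about 1 in 20. This library has the lowest total of all footprint libraries (4602092 counts) and the highest Ctu1 score (1.19). The part of either in the value was not tested.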

How the results depend on the processing

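The 8 simple log2 changes of Dynap stayed above 0 in all 118 alternative fits, and in 109 of these they moved by less than 1 SD between replicates. Using all RNA replicates, which brings in libraries that go against their labels, gave 1.60 for torin 1 in control, 0.36 for torin 1 in Ctu1KO, 1.23 for loss of Ctu1 with torin 1 and -1.23 for the difference of the torin 1 effects, and translational efficiencies of -0.51 (loss of Ctu1 with DMSO) and 1.13 (torin 1 in Ctu1KO). Replicates 1 and 2 alone, chosen after seeing the data, gave 2.12 and 2.85 in footprints for torin 1 in Ctu1KO and loss of Ctu1 with torin 1 (1.16 and 1.91 in replicates 3 to 6, and 2.56 for the latter in replicates 1 to 3), 1.0 for the difference of the torin 1 effects (-0.12 in replicates 3 to 6, also chosen later), and in RNA 1.81 for loss of Ctu1 with DMSO and -0.0067 for the difference. Leaving out 1 library gave, in RNA, 1.84 to 2.42 for loss of Ctu1 with DMSO, 0.84 to 1.42 for torin 1 in Ctu1KO and -0.58 to 0.022 for the difference, with 1.84, 1.42 and 0.022 from the fits without Ctu1KO replicate 3 with DMSO.

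With the replicate block no value of Dynap moved beyond 1 SD (2.19 in RNA and 1.99 in footprints for loss of Ctu1 with DMSO), while genes called rose to 2831 (loss of Ctu1) and 4206 (torin 1) in RNA and 2019 (torin 1) in footprints, and list genes called to 18, 41 and 25. In footprints with loss of Ctu1 the block gave 364 genes and 3 list genes. DESeq2 called 700 genes in footprints and 1530 and 1963 in RNA, and 5 and 11 list genes with loss of Ctu1. Library totals alone gave 4 and 3 list genes with loss of Ctu1. All RNA replicates gave 2677 genes and 24 list genes with loss of Ctu1. Replicates 1 to 3 alone gave 2 and 138 genes in footprints and 0 and 4 list genes, and replicates 1 and 2 alone 0 and 134 genes and 0 and 3 list genes in footprints, and 1547 genes and 12 list genes in RNA with loss of Ctu1. By edgeR, 1030 and 1067 genes had an unadjusted p under 0.05 in these footprint fits of loss of Ctu1, 5 and 6 of them list genes. Replicates 3 to 6 gave 184 genes. Leaving out 1 library gave 144 to 285 genes in footprints and 0 to 511 in RNA with loss of Ctu1, with 0 to 4 list genes in RNA (at 0, edgeR left 1703 genes at an unadjusted p under 0.05), and 412 to 1233 genes and 11 to 16 list genes in RNA with torin 1. Few footprints per library limit the precision of Dynap.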
